A study of Mus musculus with 6 samples.

Results

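The 10 genes described here encode the machinery that loads peptides onto major histocompatibility complex (MHC) class I molecules. They were taken by name from the deposited expression table: the class I heavy chains H2-K1 and H2-D1, the light chain B2m, the peptide transporter and loading genes Tap1, Tap2 and Tapbp, the immunoproteasome subunits Psmb8, Psmb9 and Psmb10, and the class I transactivator Nlrc5. All 10 were among the 12942 genes of the table and all 10 passed the filter on low values, which left 11226 genes tested. The measurement was RNA sequencing of mouse liver iNKT1 cells that had been sorted by CD1d tetramer binding and YFP. Such T cells see lipids held by CD1d, itself a class I-like molecule, and need T-bet, which Tbx21 encodes. Control mice carried Tbx21Cre and Rosa26-YFP+, that is, a Cre expressed from Tbx21 sequences and a reporter that marks the cells in which Cre has acted. The other mice, named cKOHet, carried in addition Ets1F/F and Tbx21F/+, so that both Ets1 alleles and 1 Tbx21 allele were floxed. Ages and strains were not stated. Each group had 3 libraries, numbered 1, 2 and 4 in the labels, and replicate 1 of each group has a code that joins 2 names, which the labels do not explain.

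Class I molecules carry peptides of cytosolic proteins to the surface of nearly all nucleated cells, where CD8 T cells and natural killer cell receptors read them. Peptides are cut by the proteasome, pumped into the endoplasmic reticulum by the Tap1-Tap2 transporter and fitted into the heavy chain and B2m by a loading complex that contains tapasin, the product of Tapbp. Interferons exchange 3 catalytic subunits of the standard proteasome, Psmb5, Psmb6 and Psmb7, for the immunoproteasome subunits Psmb8, Psmb9 and Psmb10, and lymphocytes carry the exchanged form without stimulation. Nlrc5 acts with the RFX, CREB and NF-Y complexes on the so-called SXY module of class I promoters, while NF-kappa B and interferon regulatory factors bind other elements.

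Sequence upstream of these genes is shown because the members shared control elements to different degrees. RefSeq promoters on GRCm38.p6, 250 bases before to 50 after the start, were found for 8 of the 10 genes, and Tap2 and Nlrc5 had none. Below are the bases before the start, as far as they lie outside annotated exons, of a heavy chain gene, the light chain gene and the immunoproteasome gene that changed most. Capitals mark matches, on either strand, to CCAAT (the Y box bound by NF-Y), TGACG (the start of a cyclic AMP element, like the X2 box), GGGA and CCC with any 3 bases between (kappa B), GAAA and GAAA with any 2 bases between (the core of the interferon-stimulated response element), TTCNNNGAA (gamma-activated site) or CGGAAG (an Ets core). H2-K1 lies on the minus strand at chr17:34000348-34000597, B2m on the plus strand at chr2:122147437-122147685 and Psmb10 on the minus strand at chr8:105938445-105938642.
H2-K1: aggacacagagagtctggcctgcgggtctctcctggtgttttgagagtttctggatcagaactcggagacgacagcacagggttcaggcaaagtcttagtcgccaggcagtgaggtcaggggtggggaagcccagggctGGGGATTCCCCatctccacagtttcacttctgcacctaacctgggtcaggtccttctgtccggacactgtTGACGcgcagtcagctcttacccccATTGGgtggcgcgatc
B2m: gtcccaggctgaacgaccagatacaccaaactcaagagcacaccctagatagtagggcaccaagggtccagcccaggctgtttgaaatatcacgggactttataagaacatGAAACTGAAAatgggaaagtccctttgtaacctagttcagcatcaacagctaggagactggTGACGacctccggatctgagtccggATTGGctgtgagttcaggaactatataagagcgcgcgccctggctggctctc
Psmb10: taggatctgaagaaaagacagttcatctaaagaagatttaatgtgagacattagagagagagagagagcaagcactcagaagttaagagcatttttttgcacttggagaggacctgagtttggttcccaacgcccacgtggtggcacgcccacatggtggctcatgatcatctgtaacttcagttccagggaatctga

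The windows of H2-K1, H2-D1 and B2m each held a TGACG followed by an inverted Y box, and those of the heavy chains held a kappa B match in addition. Short stretches around single matches show how alike the heavy chain genes are at these places, and that Tap1 and Psmb9, which are transcribed away from each other, read the same Y box from opposite strands. The windows of Tap1 and Psmb9 share 275 of their 300 bases. Windows were placed by RefSeq starts, and some GENCODE models begin further upstream. The stretches of H2-D1 and Psmb8 below lie within annotated exons of the same genes. Those of Tap1 and Psmb9 lie within annotated exons of Psmb9, and that of H2-K1 lies outside exons. The stretches lie at chr17:34000440-34000467 (minus strand, H2-K1), chr17:35262914-35262941 (plus, H2-D1), chr17:34187322-34187349 (plus, Tap1), chr17:34187323-34187350 (minus, Psmb9) and chr17:34198088-34198115 (plus, Psmb8).
H2-K1 kappa B: cccagggctGGGGATTCCCCatctccac
H2-D1 kappa B: cccagggctGGGGATTCCCCatctcctc
Tap1 Y box: gggctcggctttCCAATcagcggctgcg
Psmb9 Y box: gcgcagccgctgATTGGaaagccgagcc
Psmb8 gamma-activated site: tcctccgctgTTCCCAGAAgatgccccc
Over the whole 300 bases, a Y box was found in 6 of the 8 genes with an entry and in 37.41% of all 32851 promoters, and TGACG in 5 of the 8 and in 20.81%. In both counts Tap1 and Psmb9 enter through the same site, which is thus counted for each of them. A kappa B match was found in 2 genes (5.55% of all promoters), the interferon-stimulated response element core in B2m alone (3.44%) and the gamma-activated site in Psmb8 alone (8.30%). CGGAAG, present in 16.85% of all promoters, was in none of the 8 windows, and the complete cyclic AMP element TGACGTCA (1.79%) was not either. The window of Psmb10 held none of these letters. These matches, some of them within annotated exons, describe the reference sequence and say nothing of which factor is bound in these cells.

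Positions of genes below are from GENCODE M21 on GRCm38 (mm10). Normalised read counts summed to between 4996523 and 5219483 per library, which are totals after scaling and do not give the original depth. Ets1, the targeted transcription factor, averaged 7144 ± 795 (SD, n = 3) in controls and 499.8 ± 83.8 in cKOHet libraries, which was 14.3-fold lower. Tbx21 was at 2568 ± 174 and 2206 ± 98.5, a log2 fold change of -0.22 that did not pass the test (limma adjusted p = 0.196). T cell and iNKT genes were present in every library: Cd3e at 3411 to 5648, Trac at 2869 to 4267 and Zbtb16, which encodes the iNKT factor PLZF, at 627 to 1255. The levels of such genes were not all steady between the groups. Of 11 iNKT1 markers tested, 2 were called lower in cKOHet libraries, where 9.97% of all genes were. These were Il2rb and Cxcr3 (log2 -0.72 and -0.51, limma adjusted p = 0.00285 and 0.00377). Zbtb16 was called higher (log2 0.53, limma adjusted p = 0.0267), as were 11.5% of all genes, and 8 markers were not called. Replicate 4 of each group had almost no Xist (1.17 and 0.08, against 4337 to 5657 elsewhere), so this difference lay within both groups. Values this close to 0 are the bottom of the table: 2 libraries list genes at exactly 0, the other 4 list them at small positive values of up to 0.112, and such values are not read as signal. The comparison of cKOHet with control libraries called 21.4% of all tested genes at an adjusted p under 0.05 (limma on log2(value + 1), Benjamini-Hochberg), 9.97% as lower and 11.5% as higher, and the groups did not overlap at 35.8% of genes.

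Of the 10 class I presentation genes, 9 had a fold change below the median of all tested genes, and the calls were in the immunoproteasome. Tapbp, 1 of these 9, lay only just below that median (log2 -0.00 against 0.01). Of the 10, 2 (Psmb8 and Psmb10) fell, none rose and 8 did not pass, against 9.97% of all genes called lower. At 6 genes all cKOHet libraries lay under all controls, where 16.7% of all genes did so in that direction. The median log2 fold change of the 10 genes was -0.28, and 0.01 over all tested genes. The fold changes of the 10 genes ran from -0.61 (Psmb10) to 0.37 (Nlrc5), so each was under 2-fold. Fewer cells of a kind and less RNA per cell cannot be told apart in such bulk samples.

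**Figure D1:**
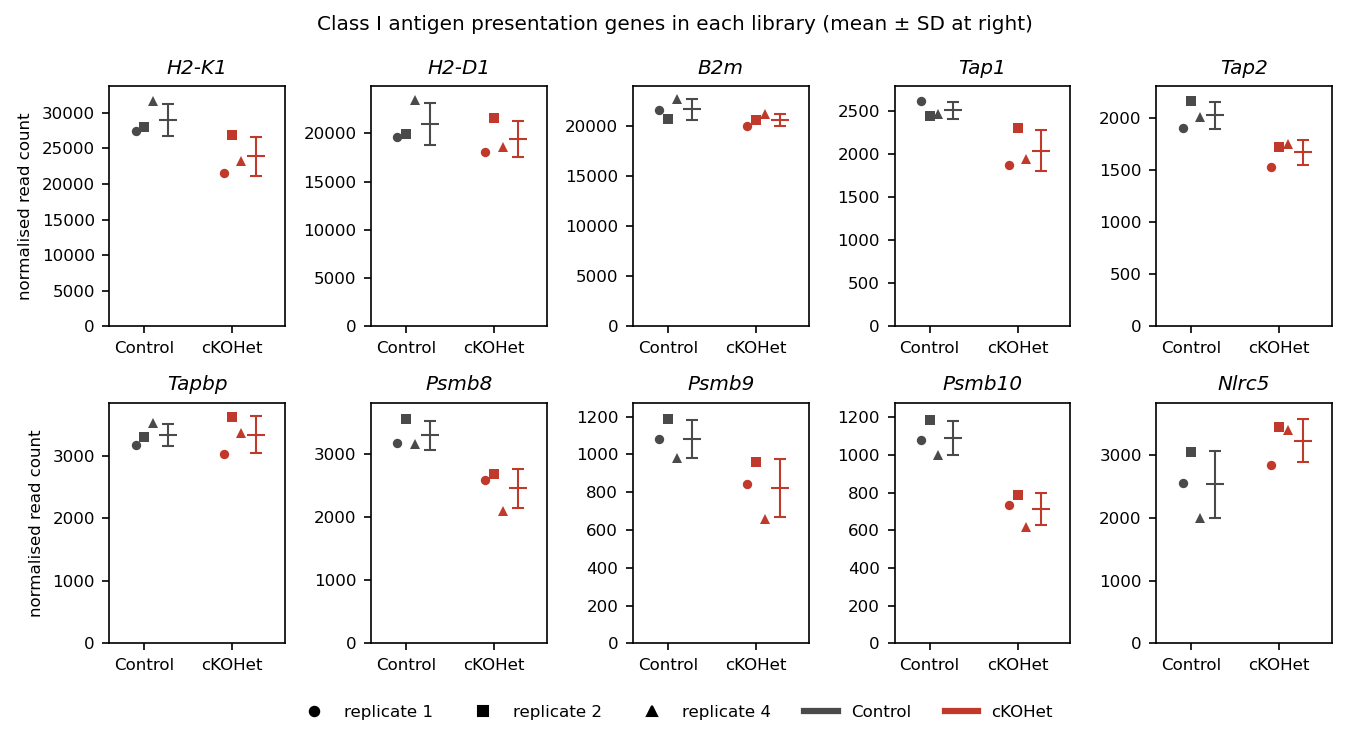
Normalised read counts (vertical axis, linear and starting at 0) of the 10 genes in each control (grey) and cKOHet (red) library, with the mean and SD of 3 libraries beside the points; symbols give the replicate number. The 3 cKOHet libraries lie below all controls for H2-K1, Tap1, Tap2, Psmb8, Psmb9 and Psmb10, and the groups overlap for the other genes.

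Among the immunoproteasome subunits, Psmb10 (ENSMUSG00000031897, chr8:105935735-105938444) encodes the trypsin-like subunit beta 2i. It was at 1082, 1188 and 1003 in control replicates 1, 2 and 4 and at 734, 789 and 620 in cKOHet replicates 1, 2 and 4. The groups were well apart, with the lowest value in cKOHet replicate 4. Its log2 fold change was -0.61 (SE 0.13, adjusted p = 0.00258), or 1.53-fold lower, and the call was kept in all 25 alternatives, at adjusted p up to 0.0433.

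Psmb8 (ENSMUSG00000024338, chr17:34197721-34201454), which encodes the chymotrypsin-like subunit beta 5i, had control values of 3164, 3548 and 3153 and cKOHet values of 2582, 2675 and 2099. Again every cKOHet library lay below every control and replicate 4 was lowest. Its log2 fold change was -0.43 (SE 0.12, adjusted p = 0.0219). Leaving out control replicate 1, control replicate 2 or cKOHet replicate 4 ended this call (adjusted p = 0.0531, 0.0959 and 0.0753), as did the 4 libraries with high Xist alone (0.0851) and a fit without a variance trend (0.118), with log2 fold changes between -0.46 and -0.32.

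Psmb9 (ENSMUSG00000096727, chr17:34181987-34187764), which encodes beta 1i, had control values of 1080, 1185 and 983 and cKOHet values of 845, 960 and 660. The gap between the groups was narrow, with cKOHet replicate 2 just under control replicate 4. Its log2 fold change of -0.41 (95% interval -0.71 to -0.11) narrowly missed the threshold (adjusted p = 0.0534) and passed it without cKOHet replicate 2 (log2 -0.53, adjusted p = 0.0249). Without cKOHet replicate 4, its lowest library, the value was -0.26 (adjusted p = 0.195). The 3 subunits moved almost as 1 across the 6 libraries. Pearson's r of log2 values was 0.94 to 0.98 between them, and 0.96 to 0.99 for the deviations from the group means, which describes 6 libraries and shares each library's depth and scaling.

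None of the 3 constitutive subunits that these replace passed the test. Psmb5, the counterpart of Psmb8, had control values of 282, 340 and 338 and cKOHet values of 390, 417 and 309 (log2 0.21, adjusted p = 0.391). Psmb7, the counterpart of Psmb10, was at 333, 385 and 391 and at 544, 473 and 389 (log2 0.33, adjusted p = 0.142), with 0.46 (adjusted p = 0.0449) without cKOHet replicate 4, 0.22 (adjusted p = 0.398) without cKOHet replicate 1 and 0.50 (adjusted p = 0.0555) in the high Xist libraries. Psmb6, the counterpart of Psmb9, was at 534, 534 and 456 and at 524, 444 and 361 (log2 -0.21, adjusted p = 0.381). Single libraries left out moved Psmb5 between 0.12 (without control replicate 1 or cKOHet replicate 2) and 0.34 (without cKOHet replicate 4), and Psmb6 between -0.34 (without cKOHet replicate 1) and -0.07 (without cKOHet replicate 4), while Psmb5 was at 0.38 in the high Xist libraries.

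The ratio of immunoproteasome to constitutive reads within a library does not depend on its linear scaling. Psmb8/Psmb5 took control values of 11.2, 10.4 and 9.32 and cKOHet values of 6.62, 6.41 and 6.79, so that the cKOHet values were both lower and close together. Psmb10/Psmb7 was 3.25, 3.08 and 2.56 against 1.35, 1.67 and 1.59. On the log2 scale these ratios differed by -0.64 and -0.94, and neither group overlapped the other. The 6 libraries allow 10 splits, so the smallest 2-sided exact permutation p is 0.1, which both ratios reached (adjusted p = 0.233 over 7 ratios). Psmb9/Psmb6 was 2.02, 2.22 and 2.16 against 1.61, 2.16 and 1.83, and these groups overlapped (log2 difference -0.20, exact permutation p = 0.3).

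**Figure D2:**
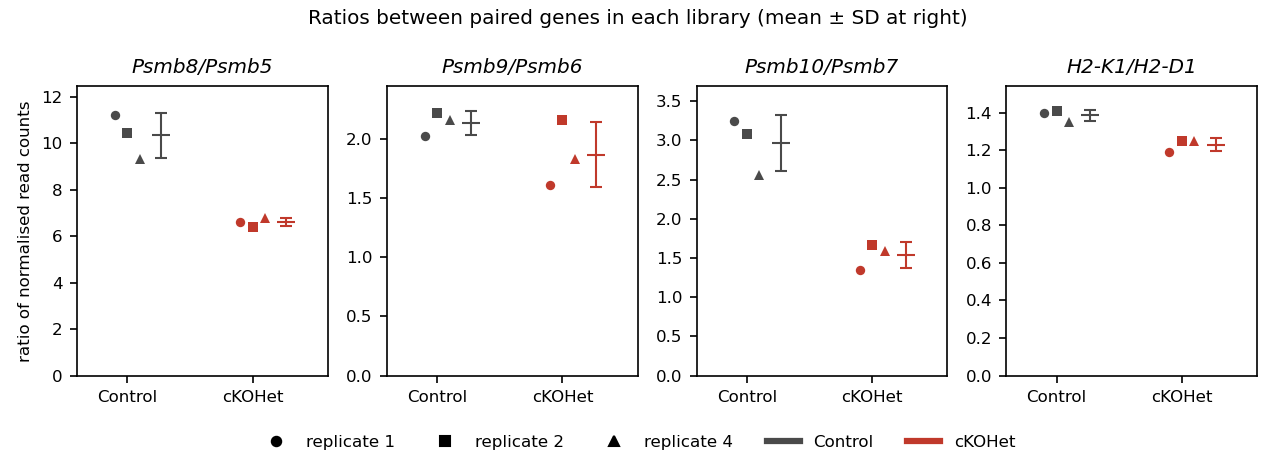
Ratios of normalised read counts (vertical axis, linear and starting at 0) for 4 gene pairs in each control (grey) and cKOHet (red) library, with the mean and SD of 3 libraries. Psmb8/Psmb5, Psmb10/Psmb7 and H2-K1/H2-D1 separate the groups, with Psmb8/Psmb5 at 9.32 to 11.2 in controls and 6.41 to 6.79 in cKOHet libraries, and Psmb9/Psmb6 does not.

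Few other proteasome genes were called. Of 14 genes of the core particle, Psmb5, Psmb6 and Psmb7 included, none was called in either direction, and their median log2 fold change was -0.05. Psmb3, the member with the smallest adjusted p, had a log2 fold change of -0.36 (adjusted p = 0.0693). Of 17 genes of the regulatory particle none was called, with a median of 0.00, and Psmd4 (-0.36, adjusted p = 0.0683) and Psmc1 (-0.27, adjusted p = 0.182) came nearest. Against 9.97% of all genes, 1 of 9 genes of the proteasome activators and assembly factors fell. This was Psme1, a subunit of the interferon-inducible PA28 activator, which had control values of 1985, 2217 and 2134 and cKOHet values of 1789, 1619 and 1418 (log2 -0.40, adjusted p = 0.0262). Leaving out replicate 2 or 4 of either group ended its call (controls first, adjusted p = 0.0981, 0.0726, 0.0628 and 0.0845). Its partner Psme2 was at 1811, 1924 and 1524 and at 1643, 1332 and 1280 (log2 -0.31, adjusted p = 0.117). Pomp, an assembly chaperone of the proteasome, had a log2 fold change of -0.38 (adjusted p = 0.0688).

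The peptide transporter genes were lower without passing the test. Tap1 (ENSMUSG00000037321, chr17:34187553-34197225) had control values of 2613, 2440 and 2458 and cKOHet values of 1865, 2304 and 1941. Tap2 (ENSMUSG00000024339, chr17:34203527-34216321) was at 1911, 2169 and 2010 and at 1532, 1728 and 1758. Both genes were lower in every cKOHet library than in any control. Their log2 fold changes of -0.30 (95% interval -0.55 to -0.05) and -0.28 (-0.52 to -0.04) did not pass the test (adjusted p = 0.0839 and 0.0988). Without cKOHet replicate 2, which had the highest Tap1 of its group, Tap1 was called (log2 -0.40, adjusted p = 0.0459). The ratio of Tap1 to Tap2, which form 1 heterodimer, averaged 1.24 ± 0.12 (SD, n = 3) and 1.22 ± 0.12 (exact permutation p = 0.7).

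Tapbp (ENSMUSG00000024308, chr17:33915899-33929292), which holds class I molecules to the transporter, had control values of 3167, 3301 and 3519 and cKOHet values of 3025, 3616 and 3364. The groups had nearly the same mean, and the 95% interval of the log2 difference ran from -0.25 to 0.25. Its relative Tapbpl, the peptide editor TAPBPR, did fall, from 652, 625 and 673 to 442, 507 and 518 (log2 -0.41, adjusted p = 0.0267). For Tapbpl the call held only without cKOHet replicate 4 among the leave-outs, and the other 5 gave adjusted p of 0.0507 to 0.0953. Of 12 genes of peptide loading and trimming, 2 fell (9.97% of all genes did) and none rose (11.5%), with a median of 0.01. The other that fell was Tpp2, a cytosolic peptidase (1079 ± 102 and 787 ± 118, log2 -0.46, adjusted p = 0.0219), a call lost on leaving out control replicate 1, control replicate 4 or cKOHet replicate 2 (adjusted p = 0.0884, 0.0814 and 0.110). The endoplasmic reticulum chaperones Canx, Calr and Pdia3 were not called (log2 0.14, -0.09 and 0.14), nor was the trimming peptidase Erap1 (log2 0.19).

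**Figure D3:**
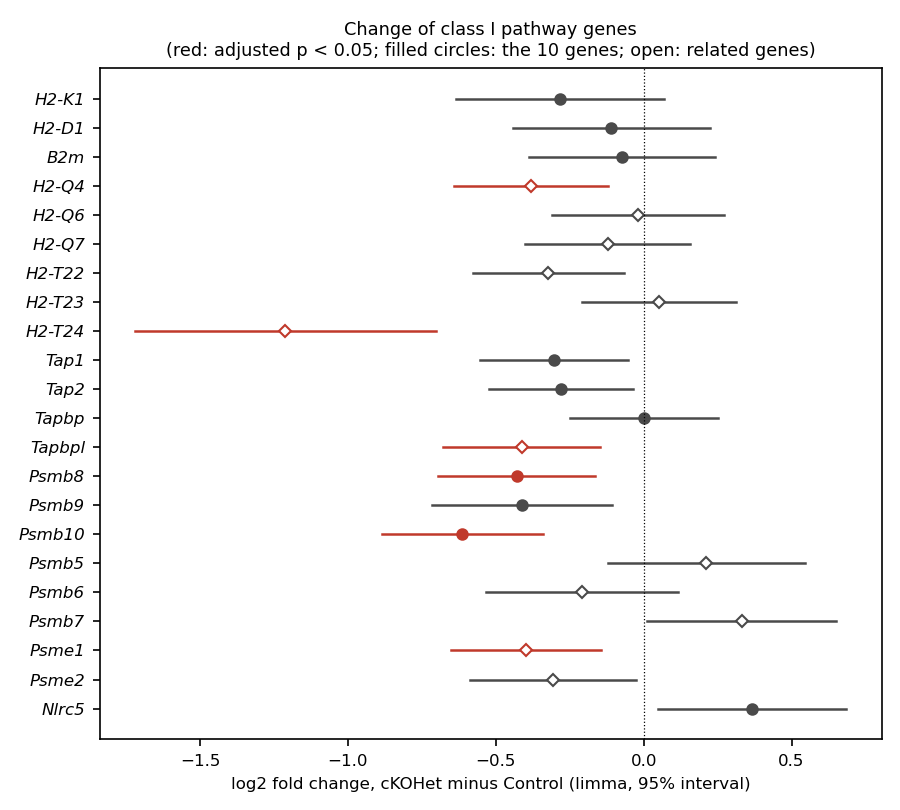
Log2 fold change (horizontal axis, cKOHet minus control, limma) with its 95% interval for the 10 genes (filled circles) and related genes (open diamonds), in red where the adjusted p was under 0.05. Psmb8 and Psmb10 lie left of 0 in red, at -0.43 and -0.61, while Psmb5, Psmb7 and Nlrc5 lie to the right and are not called.

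The class I chains themselves were abundant in both groups. Per kilobase of merged exons, the level of B2m was 25235 ± 1199 in controls (SD, n = 3), above H2-K1 at 9877 ± 780 and H2-D1 at 8128 ± 827, and far above Tapbp (918 ± 48.9), Psmb8 (973 ± 66.6), Psmb10 (640 ± 54.3), Tap2 (537 ± 34.4), Tap1 (457 ± 17.4), Nlrc5 (298 ± 62.4) and Psmb9 (296 ± 27.5). Merged exons join all annotated models of a gene, 3381 bases for Psmb8 and 3660 for Psmb9. Which models these cells use was not examined. Bases they do not use lower a level, so the order of genes with near levels is uncertain. On this scale the levels of Tapbp and Psmb8 did not differ beyond their spread, nor did those of Nlrc5 and Psmb9. In cKOHet libraries, Nlrc5 (380 ± 39.9 per kilobase) lay above Psmb9 (224 ± 41.4) and level with Tap1 (372 ± 42.8).

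H2-K1 (ENSMUSG00000061232, chr17:33996017-34000347) had control values of 27397, 28020 and 31642 and cKOHet values of 21557, 26907 and 23294. The groups did not overlap, but cKOHet replicate 2 was close to the lowest control. Its log2 fold change of -0.28 (95% interval -0.63 to 0.07) did not pass the test (adjusted p = 0.264) and was -0.06 with quantile normalisation (adjusted p = 0.86). H2-D1 (ENSMUSG00000073411, chr17:35262730-35267499) was at 19589, 19881 and 23419 and at 18082, 21568 and 18620, with overlapping groups and a log2 fold change of -0.11 (-0.44 to 0.22, adjusted p = 0.69) that turned to 0.06 with quantile normalisation and to 0.00 in the 4 libraries with high Xist. It ranged from -0.19 without cKOHet replicate 2 to -0.06 without cKOHet replicate 1 and -0.03 without control replicate 4. B2m (ENSMUSG00000060802, chr2:122147686-122153083) was at 21634, 20707 and 22767 and at 20015, 20644 and 21200 (log2 -0.07, -0.39 to 0.24, adjusted p = 0.792), and its fold change was -0.04 without control replicate 4. These intervals leave room for decreases of up to 0.63, 0.44 and 0.39 on the log2 scale.

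Within libraries, H2-K1 was lower relative to H2-D1 in all cKOHet libraries. This ratio had control values of 1.40, 1.41 and 1.35 and cKOHet values of 1.19, 1.25 and 1.25, a log2 difference of -0.17 at the smallest exact permutation p the design allows (0.1, adjusted p = 0.233). H2-K1/B2m averaged 1.34 ± 0.06 and 1.16 ± 0.12 (SD, n = 3, exact permutation p = 0.2) and H2-D1/B2m 0.965 ± 0.062 and 0.942 ± 0.090 (exact permutation p = 0.7). H2-K1, H2-D1 and the Q and T genes are close copies, and no source used here says how reads matching several of them were counted, so values of single heavy chain genes are uncertain. Summed over the 13 heavy chain genes of the lists, reads were 68760, 71092 and 75970 in controls and 58684, 71188 and 59965 in cKOHet libraries, or 1.34 to 1.46% and 1.15 to 1.40% of all reads. The groups overlapped through cKOHet replicate 2 (log2 difference -0.19, exact permutation p = 0.3).

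Among 13 other class I and class I-like genes tested, 2 fell (9.97% of all genes did) and none rose (11.5%), with a median of -0.14. H2-T24, a nonclassical heavy chain gene of the T region, had control values of 280, 340 and 168 and cKOHet values of 115, 117 and 94.8 (log2 -1.21, SE 0.24, adjusted p = 0.0017), a larger shift than that of any of the 10 genes. H2-Q4 was at 3435, 3942 and 3674 and at 2698, 3202 and 2606 (log2 -0.38, adjusted p = 0.0356). Its call ended without any 1 of 5 libraries, the exception being cKOHet replicate 2 (adjusted p 0.0611 to 0.135), and with library weights (0.0555). H2-T23, which encodes the Qa-1 ligand of NKG2A receptors, was not called (log2 0.05, adjusted p = 0.826), nor were Mr1, which presents metabolites to MAIT cells, and Cd1d1, which presents lipids to iNKT cells (log2 0.06 and -0.12).

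Nlrc5 (ENSMUSG00000074151, chr8:94434356-94527272) was the only 1 of the 10 genes whose 95% interval lay above 0, and its adjusted p missed the threshold. It had control values of 2548, 3053 and 1994 and cKOHet values of 2841, 3455 and 3396, with control replicate 2 above cKOHet replicate 1. Its log2 fold change of 0.37 (95% interval 0.05 to 0.69) did not pass the test (adjusted p = 0.0983) and passed it without control replicate 2 (log2 0.51, adjusted p = 0.0311). Without control replicate 4, its lowest library, the value was 0.21 (adjusted p = 0.393), and in the 4 libraries with high Xist it was 0.17 (adjusted p = 0.514). Across the 6 libraries its r of log2 values with the other 9 genes ran from -0.74 (B2m) to 0.05 (Tapbp), as a description of 6 points that share scaling and group. For deviations from the group means r ran from -0.56 (B2m) to 0.64 (Tap2), and was above 0 for Tap1, Tap2, Tapbp, Psmb8, Psmb9 and Psmb10. Among its partners at the SXY module, Rfx5 was at 200 ± 36.6 and 231 ± 4.48 (SD, n = 3, log2 0.22, adjusted p = 0.421). Creb1 rose slightly (log2 0.39, adjusted p = 0.046) and was not refitted under the alternatives. Other RFX, NF-Y and CREB family genes were not called and lay on both sides of 0. Rfxap, Nfya, Nfyc and Atf1 had log2 fold changes of -0.10, -0.07, -0.26 and -0.07, and Rfxank and Nfyb of 0.05 and 0.25.

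Of 20 transcription factors of class I genes tested, 4 fell and 2 rose, where 9.97% of all genes fell and 11.5% rose. Irf1, which activates class I and immunoproteasome promoters, fell from 1953, 1658 and 1662 to 1366, 1295 and 1288 (log2 -0.41, adjusted p = 0.0168), a call that ended without control replicate 1 or cKOHet replicate 2 (adjusted p = 0.111 and 0.0544). Irf8 and Irf9 fell by 1.04 and 0.52 on the log2 scale, the former not called in the libraries with high Xist alone (adjusted p = 0.0721). Prdm1, which encodes the repressor Blimp-1, rose from 164 ± 34.5 to 426 ± 87.2 (log2 1.37, adjusted p = 9.41e-05).

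Genes of interferon gamma signalling moved in opposite directions. Ifng had control values of 473, 401 and 351 and cKOHet values of 1686, 2157 and 1566 (log2 2.14, adjusted p = 7.28e-08). Ifngr1, a chain of its receptor, was at 2406, 2850 and 2373 and at 9938, 7955 and 9453 (log2 1.84, adjusted p = 9.91e-08). Of 9 genes tested, these 2 rose and 4 fell, against 11.5% and 9.97% of all genes. Among the 4 were Irf1, the receptor kinase Jak1 (log2 -0.43, adjusted p = 0.0325) and the feedback inhibitor Socs3 (log2 -1.44, adjusted p = 0.000907). The receptor gene Ifngr2 was not analysed here. So the cytokine and its receptor were higher in the libraries in which Psmb8, Psmb10 and Irf1, genes that interferon gamma can induce, were lower.

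Most interferon-stimulated genes, a group that includes many antiviral effectors, were lower. Of 19 tested, 16 fell (9.97% of all genes did), Mx1 rose, and Irgm1 and Oasl2 did not pass. Their median log2 fold change was -0.87. Ifi44 had control values of 92.5, 171 and 60.2 and cKOHet values of 2.03, 0.79 and 1.12 (log2 -5.46), and Oas2 was at 139, 221 and 44.5 and at 8.07, 6.33 and 0.07 (log2 -4.76). Ifit3 was at 317, 589 and 223 and at 102, 118 and 63.6 (log2 -1.91). Control replicate 2 was the highest library for each of these 3 genes. Ifi44 and Oas2 passed the filter on low values through the controls alone, so that they could only be tested as lower. Of the 16 genes of the list at 10 or more in every library, 14 fell and 1 rose, with a median of -0.86. Without control replicate 1 or 2, 10 genes of the list were called lower, with the genes tested held the same. Whether this list and the 10 class I genes differ was not tested.

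**Figure D4:**
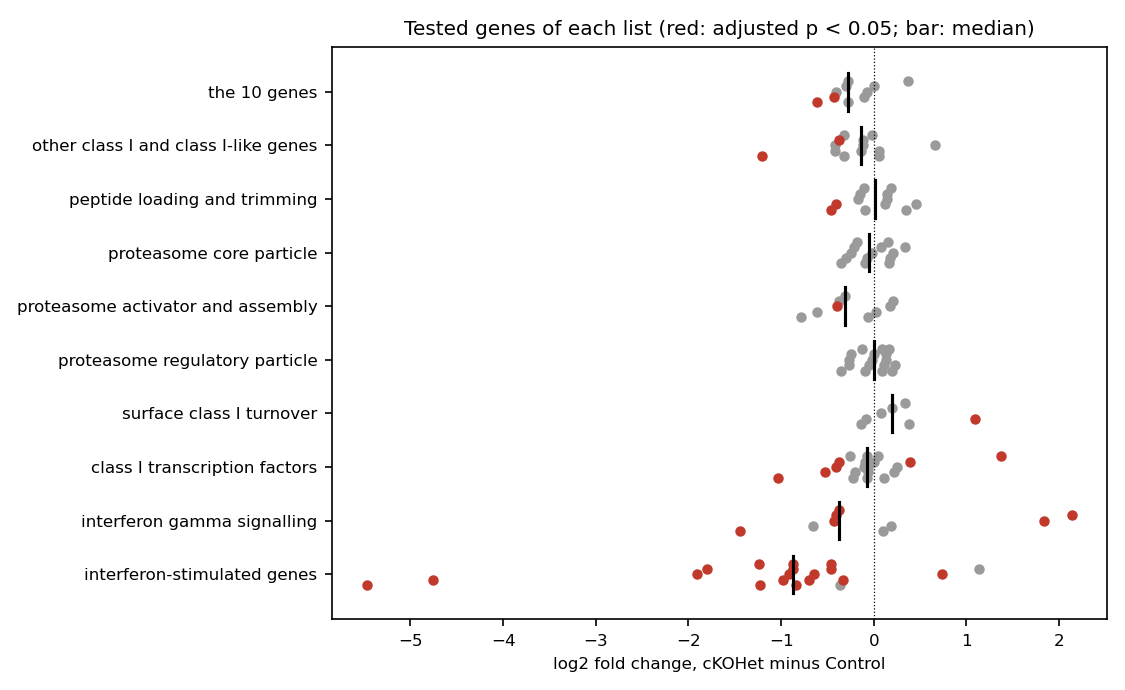
Log2 fold change (horizontal axis, cKOHet minus control) of every tested gene in the class I lists and the interferon lists, in red where the adjusted p was under 0.05, with the list median as a black bar. The medians are -0.28 for the 10 genes, -0.05 for the proteasome core and -0.87 for interferon-stimulated genes.

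Of 7 genes of class I turnover tested, 1 rose: March9, a membrane ubiquitin ligase that removes class I from the surface, went from 58.1, 45.4 and 58.2 to 112, 109 and 126 (log2 1.09, adjusted p = 0.00434). Over all the class I, proteasome and interferon lists, 124 genes other than the 10 were tested, of which 28 fell and 9 rose. These counts include the lists of interferon and class II genes, and 16 of the 28 were interferon-stimulated genes. Of all tested genes, 9.97% fell and 11.5% rose.

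Of the 10 genes, 6 (H2-K1, Psmb9, Tap1, Psmb8, Tap2 and H2-D1) lie in the MHC on chromosome 17 between 33996017 and 37483552, Tapbp lies just before it, Psmb10 and Nlrc5 are on chromosome 8 and B2m is on chromosome 2. Of 98 genes tested in that stretch, 15 fell (15.3%, against 9.97% of all genes) and 5 rose (5.1%, against 11.5%), and whether the stretch differs from other genes was not tested. Their median log2 fold change was -0.16. Psmb9, Tap1, Psmb8 and Tap2 are neighbours there and had log2 fold changes of -0.41, -0.30, -0.43 and -0.28. Psmb10, the gene with the largest decrease of the 10, lies outside this region. Some gene models overlap others: Tap1 and Psmb9 by 212 bases on opposite strands, and Psmb10 along its length by the antisense model Gm16156. B2m lies wholly within the span of Patl2 on the other strand, Psmb8 and Tap2 overlap the antisense model Gm20496 (12.7 to 30.2 reads per library), Tap2 also Gm15821, Tapbp also Gm19412, and Nlrc5 9330175E14Rik. Reads of such pairs cannot be told apart unless strand was used, and no source used here gives the strand setting. Tapbp shares 3422 bases with Zbtb22 on the same strand, where strand would not separate them; Zbtb22 was at 174 to 236.

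**Figure D5:**
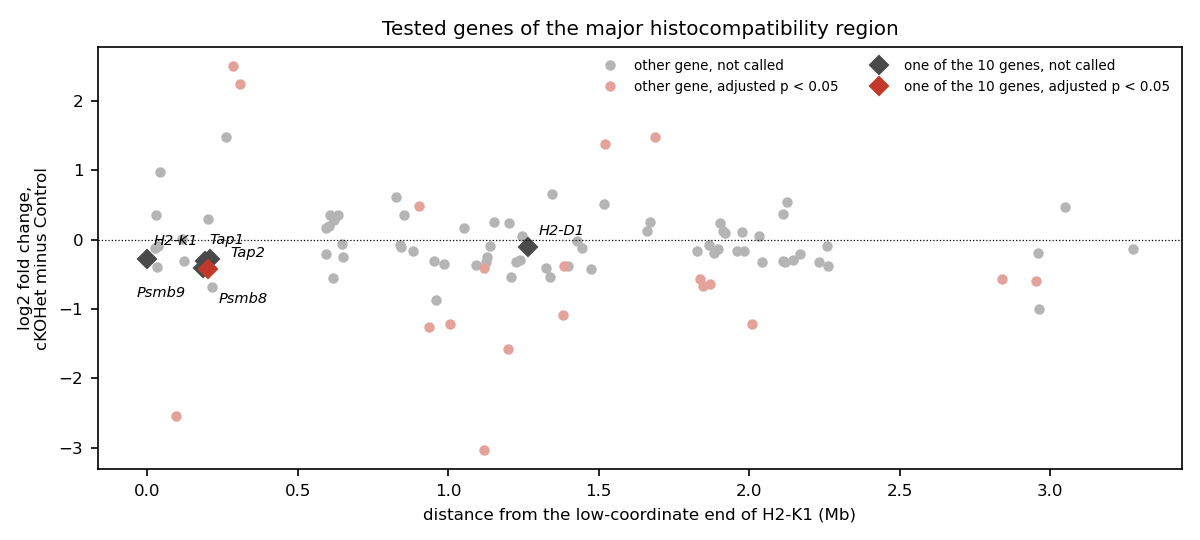
Log2 fold change (vertical axis, cKOHet minus control) of the 98 tested genes of the MHC on chromosome 17 against distance from the low-coordinate end of H2-K1 (horizontal axis, Mb); diamonds are 6 of the 10 genes and red shades mark an adjusted p under 0.05. The 6 genes lie slightly below 0, between -0.43 and -0.11, among neighbours that range from -3.03 to 2.50.

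The 5 genes whose log2 values followed the mean of the 10 standardised members most closely over the 6 libraries were Ier2, Klhl6, Cenpa, Rbm38 and Jak3 (Pearson's r 0.989 to 0.992). Jak3, the kinase of the common gamma chain, had control values of 1051, 1161 and 1387 and cKOHet values of 589, 1008 and 705. As for all of the 10 genes except B2m and Tap2, cKOHet replicate 2 was the highest of its group. The mean of the standardised members was 0.16 in that library and -0.98 and -0.67 in cKOHet replicates 1 and 4. In control replicates 1, 2 and 4 it was 0.28, 0.56 and 0.64. For Nlrc5 alone the closest were Map3k15, AI480526, Atp2a2, Pola2 and Kif4 (r 0.988 to 0.992). With 6 points and 11226 genes, such values of r describe only these libraries, the difference between the groups included.

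Many markers of other liver cells were low, but Alb reached 519 in cKOHet replicate 4 and Pecam1 was at 172 to 220 in controls. The markers moved in part with the groups. Of all tested genes, 11.5% were called higher and 9.97% lower. The summed level of 9 macrophage and Kupffer cell markers was 36.5 to 97.5 in controls and 149 to 195 in cKOHet libraries, with Csf1r and Clec4f, of 5 tested, called higher, and Adgre1 at 0.04 in control replicates 2 and 4. Of 6 MHC class II genes tested, H2-Aa, H2-Eb1 and Cd74 rose and H2-Oa fell, with the H2-Eb1 call lost without cKOHet replicate 4 (adjusted p = 0.0527) and that of H2-Oa without control replicate 4 (0.0758). H2-Oa passed the filter through the controls alone, and H2-Aa, H2-Eb1, Csf1r and Clec4f reached 10 in all cKOHet libraries but in only 1 control, so the group in which each was high admitted it. H2-Aa had control values of 10.98, 7.47 and 1.15 and cKOHet values of 41.3, 27.9 and 31.2, higher in every cKOHet library. Ciita, the class II transactivator, was at 13.9, 8.46 and 24.1 and at 4.04, 1.75 and 5.24, too low to be tested. The 6 B cell markers were not analysed here. Of 3 dendritic cell markers analysed, Itgax and Xcr1, of 2 tested, rose, and of 2 endothelial markers Pecam1, the 1 tested, fell. The 8 hepatocyte markers summed to 203 to 414 in controls and 271 to 678 in cKOHet libraries, and neither of the 2 tested was called. The part of such cells in the class I values was not tested.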

How the data were processed

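The authors deposited 1 table of normalised read counts per Ensembl gene and library, here treated as a signal rather than as counts because the deposited values are not whole and whole reads were not recovered, so the original depth is unknown. Per the submitters' processing notes, Trimmomatic 0.33, STAR, HTSeq 0.6.1 and DESeq2 were used with mm10; settings, annotation, strand and scaling were not stated in any source used here. Symbols and positions came from GENCODE M21, which named 12870 of 12942 identifiers. Values were analysed as log2(value + 1) by limma (version 3.58.1, R 4.3.3) with empirical Bayes moderation and a trend of variance on level, for genes at 10 or more in at least 3 of the 6 libraries, with Benjamini-Hochberg adjustment over all tested genes and a threshold of 0.05. Fold changes on this scale understate the change of low genes. The procedure was tested on simulated data. Ratios were compared by exact 2-sided permutation. The labels name independent replicates without naming mice, and the p-values therefore reflect only how far these libraries spread, which may be technical. The genes and lists were chosen with earlier results of these data known. Named by rule were the 10 genes, Ets1, Tbx21, Psmb5, Psmb6, Psmb7, Irf1, Rfx5, Ifng and Ciita, up to 3 called genes with the smallest adjusted p per list (2 where none was called) and the 5 closest genes by correlation. All further genes in the text were picked with their values in view, were not refitted under the alternatives, and the heavy chain sum and the high Xist setting were added likewise. No value column was left unused. A gene that the rule names is not reported here. Alternatives covered pseudocount, filter, scaling, variance model, library weights, replicate block, a term for low Xist, threshold and each library left out.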

Additional observations from a re-analysis of the deposited data

How the results depend on the processing

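Each of the 10 genes was refitted under 25 alternatives. Psmb10 was called in all of them, and Tap2, H2-K1, H2-D1, B2m and Tapbp in none. Psmb9 was called in 8, among them the term for low Xist (adjusted p = 0.0221). The number of the 10 genes called lower was 2 in the main fit. Psmb9 was called too, giving 3, with a pseudocount of 5, a filter of 50 in 3 libraries, median-of-ratios scaling and robust moderation. The replicate block and the term for low Xist also gave 3. The number was 1 at an adjusted p under 0.01, without a variance trend and in the 4 high Xist libraries (a setting added after the data were seen). With single libraries left out it was 1 to 4, where the number called higher was 0 to 1. Over all genes 2407 were called, and 1476 at an adjusted p under 0.01 (670 lower and 806 higher). With a library left out, 1779 to 2207 were called, 763 to 1033 of them lower and 857 to 1174 higher. The 28 decreases of the other pathway genes became 12 without a variance trend and 14 to 24 with a library left out (14 to 16 without control replicate 1, 15 to 18 without control replicate 2, 18 without cKOHet replicate 2), and the 16 of interferon-stimulated genes 9, and 8 to 16. Tapbp, close to 0 throughout, took a positive sign with a pseudocount of 5 (0.00), quantile normalisation (0.0112), library weights (0.0259), the high Xist libraries (0.0325), without control replicate 4 (0.0407) and without cKOHet replicate 1 (0.0685). H2-D1 did so with quantile normalisation (0.0555) and in the high Xist libraries (0.0010). With libraries left out, the log2 ratio difference ran from -0.11 to 0.0121 for H2-D1/B2m and from -0.0902 to 0.0510 for Tap1/Tap2, and it was 0.0593 and 0.0389 in the high Xist libraries. Without a variance trend the calls of Psme1, Tapbpl, Tpp2, H2-Q4, Irf1 and Irf8 were lost too (adjusted p 0.0504 to 0.142), and in the high Xist libraries those of Psme1, Tapbpl, H2-Q4, Irf8, H2-Eb1 and H2-Oa (0.0651 to 0.154). The cause of these changes was not tested. Same-numbered replicates correlated weakly in their deviations from the group means (r 0.092, 0.088 and 0.055 for numbers 1, 2 and 4), each library best with its own number, and no label says what they share. With the replicate block 2412 genes were called, and Psmb9 passed (adjusted p = 0.0262). Depth being unknown, no counting error could be given.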
